A study of Gallus gallus with 12 samples.

Results

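The genes described here are 7 Eph receptors (EPHA3, EPHA4, EPHA5, EPHA7, EPHB1, EPHB2 and EPHB3) and 3 ephrins, the ligands of these receptors (EFNA2, EFNA5 and EFNB1), along the chick midbrain and hindbrain. They were taken by gene symbol from the annotation of the array, though with earlier results of these data known. Questions were put to them on alternation between odd and even segments and on receptor and ligand in complementary regions. These 10 genes have 23 of the 38439 probe sets that are not array controls, and 19 of the 23 were among the 21731 probe sets that passed a filter on low signal. Each gene is described by its main probe set, the one with the highest mean signal, and each of the 10 main probe sets passed the filter. The 4 probe sets that did not pass (1 of EPHA3, 1 of EFNA2 and 2 of EFNA5) had a highest signal of 2.46 to 6.30 on any array.

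RNA came from the midbrain (m) and from r1 to r5, rhombomeres or segments of the hindbrain, and each region was hybridised to 2 Affymetrix Chicken GeneChips, 12 arrays in all. The labels give Gallus gallus embryos of Hamburger-Hamilton stage HH10, while the methods of the study give HH11, and no strain, sex or mutation is stated. All regions alike were loosened with Dispase at 1 mg/ml, for 15 min by the labels and 5 min by the methods, before the ectoderm and mesoderm were peeled off and the segments cut by hand. Each array carried a pool of tissue, and the 2 pools of a region, called set 1 and set 2, were collected on different occasions. Values are signals scaled to a common array median of 5.90, and where the 2 arrays of a region are given, set 1 stands first. For the tests, values under a floor of 1.03 were raised to it, and a difference is said to have passed when its p-value, adjusted over all probe sets tested, was under 0.05.

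Eph receptors are receptor tyrosine kinases that bind ephrins on the surface of neighbouring cells. Ephrin-A ligands are held in the membrane by a lipid anchor and mostly bind EphA receptors, ephrin-B ligands span the membrane and mostly bind EphB receptors, and EphA4 binds ligands of both classes. Contact starts signals in both cells, which often draw apart, and in the hindbrain this keeps cells of neighbouring rhombomeres from mixing. In vertebrate embryos EphA4 is best known there for its expression in r3 and r5, where, in the mouse, the transcription factor Krox20 acts on it.

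The 2 r3 arrays stood apart from the other 10. On r3 the 3' probe sets of actin gave 181 and 70 times the signal of its 5' probe sets, against 7.15 to 44.7 on the other arrays, and the ratio for GAPDH was 41.7 and 42.9 against 0.941 to 7.49. Such ratios rise with RNA shortened at the 5' end, and those of actin were also higher in r4 and r5 (22.0 to 44.7) than in m, r1 and r2 (7.15 to 13.3). The median of the deposited signals was 2.27 and 4.35 in r3 and 4.19 to 9.67 elsewhere. Since the ratio moves with region, its part in the differences between regions cannot be told apart from region, and values without the r3 arrays are given for the odd against even and the front against back comparisons. Of 13 genes known for their place along this axis, 10 are named by the annotation and 9 passed the filter. OTX2, a midbrain gene, gave 899 and 800 in m but also 138.5 and 145 in r1, and 1.65 to 18.9 from r2 to r5. HOXA2 lay under the floor of 1.03 in m and r1 and gave 24.6 to 152 from r2 to r5. HOXA3 gave 512 and 503 in r5 against at most 56.1 elsewhere. HOXB1, which marks r4, gave 225 and 367 in r4 but also 57.6 and 101 in r5.

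Of the 10 genes, 8 differed between the 6 regions in limma's moderated F test at an adjusted p under 0.05, against 34.9% of all probe sets tested. With m and r1 set against r2 to r5, EPHA3, EPHA4 and EPHA7 passed as higher behind (3 of 10, against 5.68% of all probe sets). EPHB1, EPHB2, EPHB3 and the ligand EFNB1 passed as higher in m and r1 (4 of 10, against 20.0%). Without the r3 arrays EPHB1 and EPHB2 no longer passed this comparison (limma adjusted p = 0.229 and 0.206), and EPHB1 was highest in r5. EPHA5 was highest in r2. EFNA2 and the main probe set of EFNA5 did not pass the F test (adjusted p = 0.741 and 0.728). Counted over the 19 probe sets that passed the filter, 11 differed (57.9%). Among brighter probe sets more passed. With a stricter filter, at the 75th percentile of each array, 6469 of 10847 probe sets passed the F test, and 8 of the 9 genes kept. At that filter 3635 of the 10847 passed as higher in m and r1 and 1165 as lower. In dissected tissue a lower signal can come from fewer cells that express a gene or from less RNA in each, and these cannot be told apart.

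EPHA7, a receptor of ephrin-A ligands, had the widest step of the EphA receptors at a boundary that passed the test. Its signal was 18.1 and 14.2 in m, 34.0 and 33.5 in r1, 222 and 210 in r2, 187 and 340 in r3, 237 and 259 in r4, and 201 and 180 in r5. Every array of r2 to r5 was above every array of m and r1, and none of the steps among r2 to r5 passed. Under quantile normalisation and under 75th percentile scaling, though, the step from r2 to r3 passed as higher in r3. From r1 to r2 the log2 difference was 2.68 (SE 0.28), or 6.39-fold (limma adjusted p = 0.00117, and 0.0523 without r2 set 1), and at this boundary only 0.290% of all probe sets passed in either direction. For m and r1 against r2 to r5 the log2 difference was -3.27 (95% interval -3.64 to -2.91, adjusted p = 3.27e-07), and without the r3 arrays it was -3.22 (adjusted p = 7.26e-10). The difference between m and r1 of 1.07 on the log2 scale was seen in both sets but did not pass over all probe sets (adjusted p = 0.444).

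EPHA3, another receptor of ephrin-A ligands, was low at the front and had a dip in r3. Its signal was 6.18 and 5.15 in m, 7.69 and 2.15 in r1, 28.2 and 25.7 in r2, 12.9 and 10.8 in r3, 36.6 and 33.8 in r4, and 35.1 and 28.5 in r5. Both r3 arrays lay below every array of r2, r4 and r5 and above every array of m and r1. The fall from r2 to r3 did not pass (log2 difference -1.19, limma adjusted p = 0.102). The median of all probe sets at this step was -0.65. Set against r2 to r5, m and r1 had a log2 difference of -2.35 (SE 0.33, adjusted p = 0.000528), and it was -2.70 without the r3 arrays. The step from r1 to r2 was 6.62-fold, with the r1 arrays apart from each other, and had an adjusted p of 0.0749. From r3 to r4 EPHA3 rose 2.98-fold (adjusted p = 0.0459), a call that was lost when any one of 10 of the 12 arrays was left out.

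EPHA4, the receptor that binds ligands of both classes, was the one gene of the 10 whose main probe set was higher in r3 and r5 than in their even neighbours. It gave 6.97 and 5.22 in m, 8.43 and 2.20 in r1, 8.66 and 7.75 in r2, 29.2 and 20.9 in r3, 13.6 and 15.1 in r4, and 41.0 and 36.0 in r5. The means were 25.0 ± 5.82 in r3 and 38.5 ± 3.52 in r5, against 8.20 ± 0.65 in r2 and 14.4 ± 1.07 in r4 (SD, n = 2 each). All 4 arrays of r3 and r5 lay above all 4 arrays of r2 and r4, r5 lay above r3 and r4 lay above r2. From r2 to r3 EPHA4 rose 3.02-fold (adjusted p = 0.0469, and 0.0551 to 0.171 without any one of 10 arrays), while the steps from r3 to r4 (log2 difference -0.79, adjusted p = 0.332) and from r4 to r5 (1.42, adjusted p = 0.452) did not pass. For m and r1 against r2 to r5 the log2 difference was -1.84 (SE 0.35, adjusted p = 0.00325), and without the r3 arrays it was -1.70 (adjusted p = 0.00467).

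EPHA5, an ephrin-A receptor studied mostly in the map of the retina onto the midbrain, was highest in r2. It gave 67.5 and 57.8 in r2, and the other 10 arrays lay between 23.5 and 34.6. It fell 2.28-fold from r2 to r3 (log2 difference -1.19, SE 0.30, adjusted p = 0.00827, and 0.0786 without r2 set 1). Under quantile normalisation this step was -0.23 on the log2 scale (adjusted p = 0.578), and the difference of 1.02 between r1 and r2 did not pass (adjusted p = 0.412). The remaining regions overlapped from one to the next in the order r4, r1, r5, r3, m. A second EPHA5 probe set was dim (0.293 to 9.87) and had its highest mean in r1 (6.36 and 9.87, against 4.79 and 7.98 in r2). It did not pass the F test (adjusted p = 0.115), though its fall from r2 to r3, where both arrays were under the floor, did (log2 difference -2.59, adjusted p = 0.0471).

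**Figure D1:**
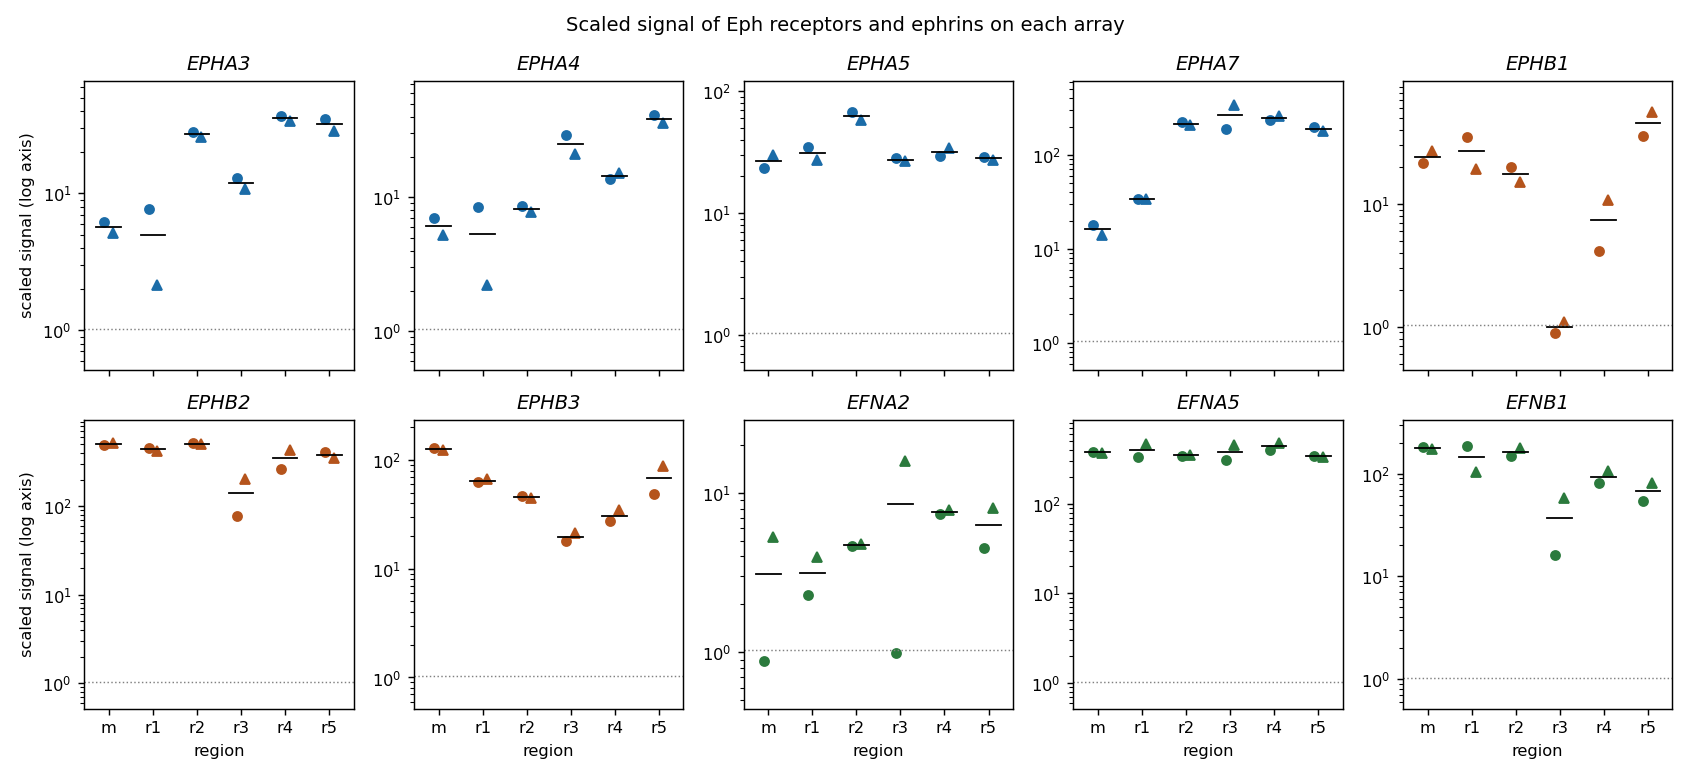
Scaled signal (log axis) of the main probe set of each gene in m and r1 to r5; circles are set 1, triangles set 2, bars the mean of the 2, and the dotted line the floor of 1.03 below which values have no order. EphA receptors are blue, EphB receptors orange and ligands green. EPHA7 steps up between r1 (34.0 and 33.5) and r2 (222 and 210), EPHA4 is highest in r5 (41.0 and 36.0), and EPHB1 is near the floor in r3 (0.896 and 1.10).

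EPHB1, a receptor of ephrin-B ligands, ranged more than any other of the 10 genes between regions. Its signal was 21.3 and 26.9 in m, 34.9 and 19.1 in r1, 20.0 and 14.9 in r2, 0.896 and 1.10 in r3, 4.13 and 10.8 in r4, and 35.8 and 55.5 in r5. Both r3 arrays lay at or next to the floor of 1.03, and both r5 arrays lay above every other array. From r2 to r3 the log2 difference was -4.02 (SE 0.54, adjusted p = 0.000245) and from r3 to r4 it was 2.65 (adjusted p = 0.00502, and 0.0648 without r4 set 2). With r3 at the floor, the size of both steps rests on that floor and on the probe set. With the floor at the 40th percentile they were -2.15 (adjusted p = 0.00634) and 0.78 (0.277), with the mean of the gene's probe sets -1.68 (0.0161) and 0.77 (0.247), and with array weights the step from r3 to r4 was also lost (adjusted p = 0.0717). The step from r4 to r5 was 6.67-fold with an adjusted p of 0.0529, and when both r3 arrays were left out of the fit it passed. A second EPHB1 probe set did not follow the first: it gave 18.4 and 16.8 in r3, its highest region after r5 (14.2 and 21.5), and did not pass the F test (adjusted p = 0.389).

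EPHB2, also an ephrin-B receptor, was lowest in r3. Its signal was 491 and 522 in m, 449 and 425 in r1, 514 and 500 in r2, 77.0 and 202 in r3, 265 and 429 in r4, and 407 and 348 in r5. Both r3 arrays lay below all others, and r3 set 1 lay well below r3 set 2. EPHB2 fell 4.06-fold from r2 to r3 (log2 difference -2.02, SE 0.36, adjusted p = 0.00122), and with r3 set 2 alone in r3 the difference was -1.33. From r3 to r4 it rose 2.71-fold (adjusted p = 0.0127), which was 0.74 on the log2 scale without r3 set 1 and lost the call without r4 set 2 (adjusted p = 0.134). Without the r3 arrays EPHB2 did not differ between the 5 regions left (F adjusted p = 0.106). The 2 other EPHB2 probe sets were dim (3.87 to 22.1) and did not pass the F test (adjusted p = 0.127 and 0.212), though 1 passed for the fall from r2 to r3 (3.02-fold, adjusted p = 0.0364). The remaining one passed for m and r1 against r2 to r5 (log2 difference 1.04, adjusted p = 0.0475). Without the r3 arrays its difference was 0.95 (adjusted p = 0.0674).

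EPHB3, like EPHB1 and EPHB2 an ephrin-B receptor, was highest in m and lowest in r3. Its signal was 129 and 123 in m, 62.5 and 66.6 in r1, 47.0 and 44.3 in r2, 17.8 and 21.4 in r3, 27.2 and 34.4 in r4, and 48.2 and 88.4 in r5. Every array of m lay above every other array, and the level went down without overlap from m to r1, r2, r4 and r3 while r5 overlapped r1. For m and r1 against r2 to r5 the log2 difference was 1.31 (SE 0.19, adjusted p = 0.000674), and without the r3 arrays it was 1.00 (adjusted p = 0.00118). EPHB3 fell 2.34-fold from r2 to r3 (adjusted p = 0.00911, and 0.0640 without r2 set 1), and under quantile normalisation this step was -0.38 on the log2 scale (adjusted p = 0.357).

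EFNB1, the membrane-spanning ligand, was high in m, r1 and r2 and low in r3. Its main probe set gave 183 and 172 in m, 185 and 105 in r1, 148 and 177 in r2, 16.3 and 58.6 in r3, 81.1 and 105 in r4, and 53.9 and 81.9 in r5. Both arrays of r4 and both of r5 lay below both of m and r2, and r3 set 2 lay within the range of r5. EFNB1 fell 5.24-fold from r2 to r3 (log2 difference -2.39, SE 0.48, adjusted p = 0.00265), which became -1.47 without r3 set 1. From r3 to r4 it rose 2.99-fold (adjusted p = 0.0300), but the difference was 0.66 on the log2 scale without r3 set 1 (adjusted p = 0.185), and the call was also lost without m set 1 or either r4 array (adjusted p = 0.0502 to 0.179). For m and r1 against r2 to r5 the log2 difference was 1.08 (SE 0.30, adjusted p = 0.0198). Without the r3 arrays it was 0.65 (adjusted p = 0.0154), and the call was lost without either m array, r1 set 1 or r4 set 1 (adjusted p = 0.0532 to 0.122).

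Of the 3 other EFNB1 probe sets, 2 gave the same picture at other levels. The brighter went from 121 and 134 in m to 23.2 and 35.8 in r3 and 65.6 and 67.1 in r4, and the dimmer from 83.0 and 106 in m to 7.94 and 5.10 in r3 and 28.7 and 19.1 in r4. Both passed for m and r1 against r2 to r5 (log2 difference 1.03 and 1.84, adjusted p = 0.00178 and 0.000132) and for the fall from r2 to r3 (3.10-fold and 11.2-fold). In r3, set 1 was the lower array on the brighter probe set and the higher on the dimmer one. The last of them (3.44 to 12.8) did not differ between regions (F adjusted p = 0.864).

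EFNA5, an ephrin-A ligand on a lipid anchor, was seen at an even level by its main probe set and at a level lower behind than in front by the second. The main probe set lay between 306 and 479 on all 12 arrays, and its region means differed by at most 1.28-fold. The second gave 51.4 and 55.4 in m, 41.4 and 45.0 in r1, 28.7 and 24.8 in r2, 16.9 and 12.2 in r3, 16.9 and 19.5 in r4, and 13.8 and 32.3 in r5. Here every array of m and r1 lay above every array of r2 to r5, with a log2 difference of 1.29 (SE 0.25, adjusted p = 0.00314, and 1.15 with adjusted p = 0.00300 without the r3 arrays). The dimmest, from 0.430 to 16.8, had a log2 difference of 1.50 that did not pass (adjusted p = 0.0538). Which of these follows EFNA5 was not tested.

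EFNA2, the other ephrin-A ligand, was too dim to be ordered. Its main probe set lay between 0.884 and 16.0, with 2 arrays under the floor, and the 2 r3 arrays gave nearly its lowest and its highest value (0.988 and 16.0). The F test did not pass (adjusted p = 0.741), and the interval of the odd against even difference ran from -2.02 to 1.46 on the log2 scale.

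**Figure D2:**
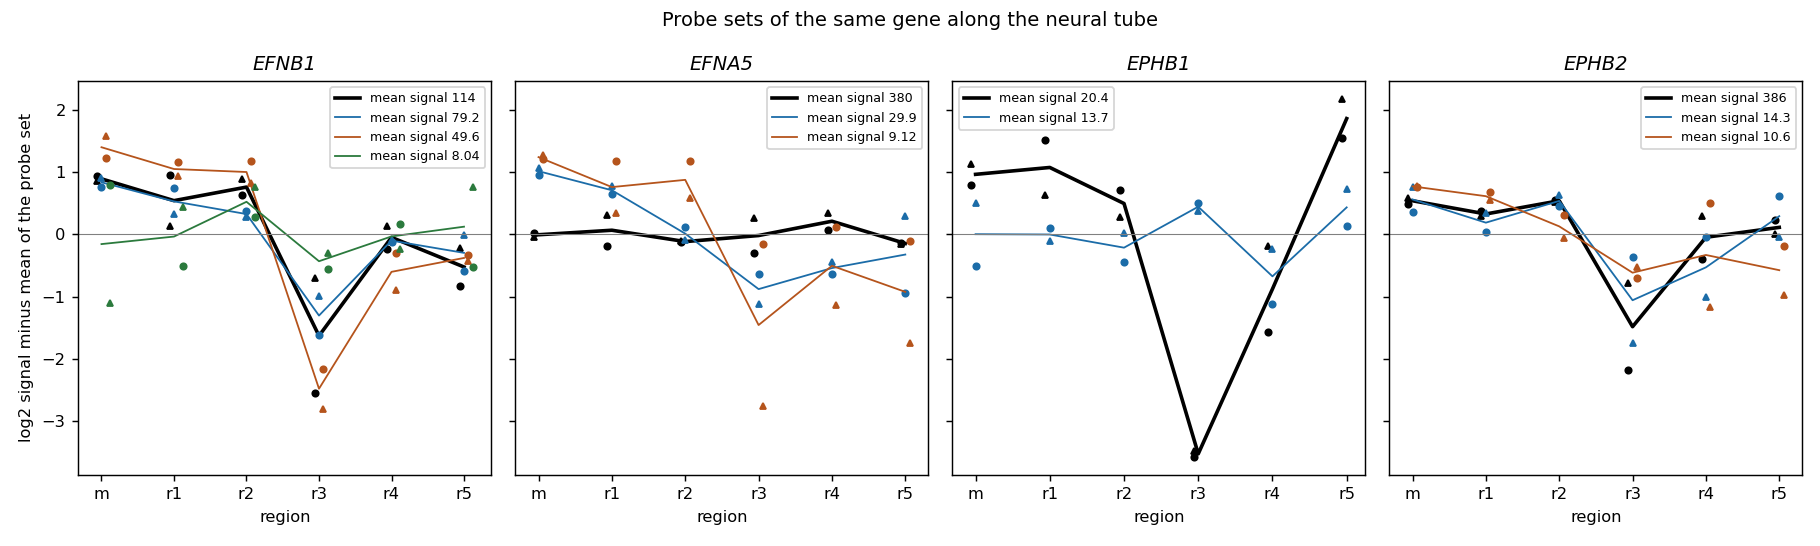
Log2 signal of each filtered probe set of EFNB1, EFNA5, EPHB1 and EPHB2 minus its own mean over the 12 arrays, by region; lines join region means, circles are set 1 and triangles set 2, and the legend gives each probe set's mean scaled signal. 3 of the 4 EFNB1 probe sets fall in r3 together, while the bright EFNA5 probe set (mean 380) is even where the second (mean 29.9) is highest in m, and the 2 EPHB1 probe sets part in r3.

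Alternation was asked with the mean of r3 and r5 against the mean of r2 and r4. EPHA4 was higher in the odd segments by 1.51 on the log2 scale, or 2.84-fold (SE 0.41, 95% interval 0.62 to 2.40, adjusted p = 0.0273), where 2.34% of all probe sets passed in that direction. EPHA5, EPHB2 and EFNB1 were lower, by log2 differences of -0.68 (adjusted p = 0.0443), -0.93 (0.0278) and -1.43 (0.0169), where 15.5% of all probe sets passed. With the filter at the 75th percentile, 3526 of 10847 probe sets passed as lower and 560 as higher. The median was -0.34 over all probe sets tested. Among all probe sets that passed, 13.1% were higher in the odd segments, and this share was 41.6% after quantile normalisation and 57.9% after scaling to the 75th percentile of each array. EPHA4 passed under both of these scalings (1.91 and 1.88), EPHB2 under the first alone (-0.58, adjusted p = 0.0432), EFNB1 under the second alone (-1.06, adjusted p = 0.0443) and EPHA5 under neither. Without any scaling EPHA4 came to 0.78 (adjusted p = 0.223) and its step from r2 to r3 to 0.14 (adjusted p = 0.876). With array weights EPHA4 did not pass (adjusted p = 0.103), while EPHB2 and EFNB1 did (0.00781 and 0.00759). In an analysis of variance without moderation EPHA5 alone passed, with EPHA4 at an adjusted p of 0.0795. Without the filter none of the 4 passed, with EPHA4 at an adjusted p of 0.0625. With the mean of the gene's probe sets EPHA5 was -0.73 (adjusted p = 0.188) and EPHB2 -0.60 (0.0661), while EPHA4 and EFNB1 passed. When r1 was added to the odd segments none of the 4 passed, with log2 differences of 0.56 for EPHA4 (adjusted p = 0.429), -0.63 for EPHA5 (0.144), -0.60 for EPHB2 (0.216) and -0.89 for EFNB1 (0.185), and the one gene that did was EPHA7 (-0.98, adjusted p = 0.0336), which is low in r1.

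Not all 4 of these patterns alternate in the sense of an odd segment apart from both even neighbours on every array. Of the main probe sets, only that of EPHA4 had r3 and r5 above r2 and r4 with no overlap, which 1.32% of all probe sets did, and only that of EPHA5 had them below with no overlap, which 4.31% did. The EPHA5 values just inside that rule were 29.0 at the highest in the odd segments and 29.3 at the lowest in the even ones, and among the even segments r2 held the high values. EPHB2 and EFNB1 overlapped, since their r5 arrays reached 407 and 81.9 where the even segments began at 265 and 81.1. The second EPHB1 probe set also had its odd segments (14.2 to 21.5) above its even ones (5.97 to 13.1), with a log2 difference of 0.88 that did not pass (adjusted p = 0.0984). Steps whose sign turned at each boundary from r2 to r5 were found in 5 of the 10 genes and in 41.8% of all probe sets.

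Without the 2 r3 arrays, r5 was set against r2 and r4, where 2.93% of 20760 probe sets passed in either direction. EPHA4 kept its size, with a log2 difference of 1.83 (95% interval 0.79 to 2.86), but did not pass (adjusted p = 0.0614), and EFNB1 was -0.88 (adjusted p = 0.0599). EPHB2 came to -0.14 (95% interval -0.49 to 0.22) and EPHA5 to -0.66 (adjusted p = 0.183). EPHB1, which was -0.64 with all arrays (adjusted p = 0.255), was 2.05 without r3 (adjusted p = 0.00946), since r5 was its highest region and r3 its lowest. The EPHA4 call with all arrays was also lost when any single array of r2, r4 or r5 was left out (adjusted p = 0.0625 to 0.0913), with the difference between 1.39 and 1.63 whichever of the 12 arrays was omitted. EPHA5 lost its call without any one of 10 arrays, EPHB2 without any one of 8 and EFNB1 without either r2 array, r4 set 2 or r5 set 1 (adjusted p = 0.0610 to 0.0827), and without r3 set 1 EPHB2 came to -0.59.

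Neural crest genes moved with the same comparison. Of 8 neural crest markers, each above the filter, 5 were lower in r3 and r5 than in r2 and r4, against 15.5% of all probe sets. With the filter at the 75th percentile, 3526 of 10847 probe sets were lower. Of the 8, 0 were higher, and their median log2 difference was -1.50. Their summed signal was 971 and 984 in r2, 283 to 319 in r3, 1714 to 2047 in r4 and 851 to 938 in r5. SOX10, a crest transcription factor, gave 37.4 and 46.5 in r3 and 664 and 857 in r4, and none of the 8 was at the floor in r3. Without the r3 arrays 2 of the 8 were lower in r5 than in r2 and r4, SOX10 (-0.95) and TFAP2B (-1.24), and 1 was higher, SOX8 (1.16). Markers of other cells passed in this comparison too. Of 8 neural progenitor markers 2 were lower in r3 and r5, MSI1 (-1.40) and HES5 (-1.295), against 15.5% of all probe sets. The 2 that were higher, against 2.34%, were PAX6 (1.39, limma adjusted p = 0.000592) and CDH2 (0.59, adjusted p = 0.0441). Of 6 markers of first neurons above the filter 2 were lower, TUBB3 (-1.63) and ELAVL4 (-1.44), and 0 were higher. Without the r3 arrays 0 markers of either list were lower, while PAX6 was still higher (0.99, limma adjusted p = 0.00306). The part of any of these cells in the EPHB2, EPHA5 and EFNB1 differences was not tested.

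**Figure D3:**
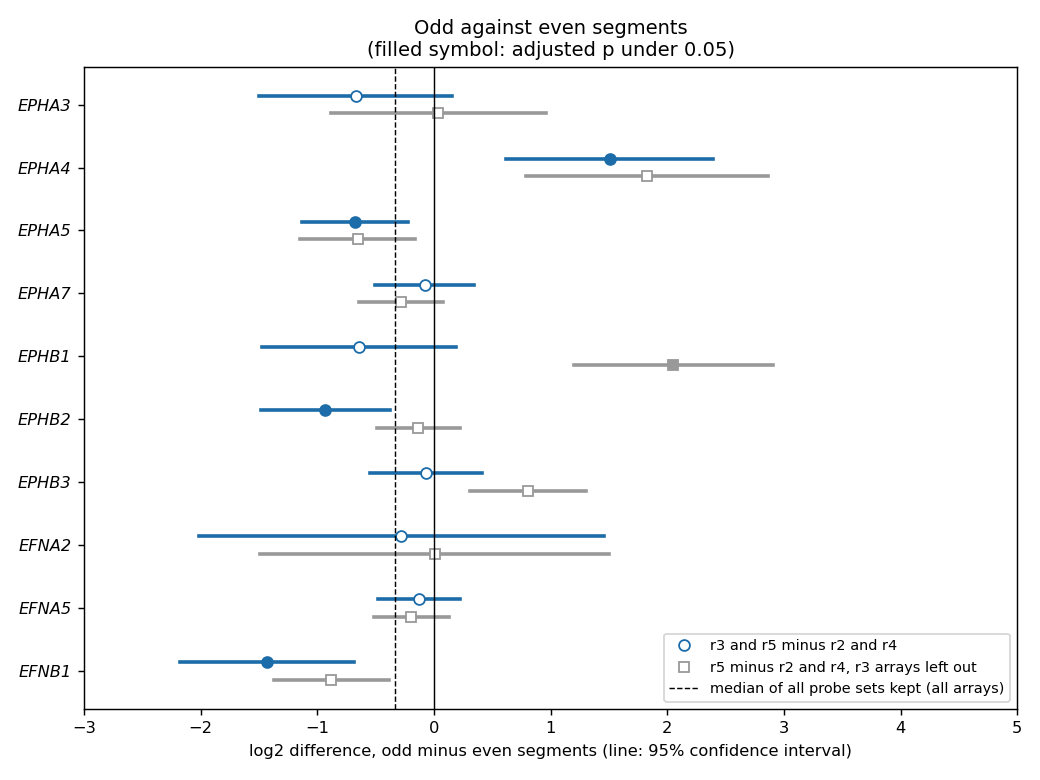
Log2 difference of r3 and r5 from r2 and r4 for each gene (blue) and of r5 from r2 and r4 without the r3 arrays (grey), with 95% confidence intervals; filled symbols have an adjusted p under 0.05 and the dashed line is the median of all probe sets, -0.34. EPHA4 stays on the right with and without r3 (1.51 and 1.83), EPHB1 changes side (-0.64 and 2.05), and EPHB2 moves from -0.93 to -0.14.

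Along the axis, m and r1 were set against r2 to r5. The genes that passed as higher at the front were EPHB1, EPHB2, EPHB3 and EFNB1 (4 of 10, against 20.0% of all probe sets), and those that passed as lower were EPHA3, EPHA4 and EPHA7 (3 of 10, against 5.68%). The median over all probe sets was 0.27. Without the r3 arrays EPHB3, EFNB1, EPHA3, EPHA4 and EPHA7 still passed, while EPHB1 came to 0.53 (adjusted p = 0.229) and EPHB2 to 0.23 (adjusted p = 0.206). With all 12 arrays but r1 set 1, EPHB1 had an adjusted p of 0.0549. EPHB2, at 0.65 with all arrays (adjusted p = 0.0463), also lost its call without any one of 9 arrays and under quantile normalisation (0.42, adjusted p = 0.0529), where EFNB1 was 0.74 (adjusted p = 0.0762). Markers of other tissues moved along the same axis. Of 8 head mesoderm markers 6 are named, 4 passed the filter and 3 of these were lower in m and r1, with a summed signal of 38.2 to 53.6 in m and r1 and 67.0 to 203 in r2 to r5. Of 8 blood and endothelium markers 6 are named, 4 passed the filter and 3 were lower in m and r1, with sums of 18.5 to 44.8 and 50.6 to 141. Of the 8 neural crest markers 3 were lower in m and r1, against 5.68% of all probe sets. Without the r3 arrays 5 of the 8 were lower, where 1308 of 20760 probe sets were. Of the head mesoderm markers 3 were still lower without r3, and 3 of those of blood and endothelium. Their part in the EPHA3, EPHA4 and EPHA7 differences was not tested. Of 8 markers of surface ectoderm and the otic placode 6 are named and passed the filter, and EPCAM (log2 difference 1.24) and PAX2 (3.82), a gene also known from the midbrain, were higher in m and r1 while DLX5 was lower (-1.60). Their summed signal was 1193 to 1295 in m and r1 and 632.5 to 1053 in r2 to r5. Of 7 endoderm and notochord markers 6 are named and 1 passed the filter, CHRD, which was higher in m and r1 (2.29, with 62.2 to 86.3 against 6.55 to 24.5). Their part in the EPHB1, EPHB2, EPHB3 and EFNB1 differences was not tested.

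At the single boundaries the calls gathered on both sides of r3, as did those of all probe sets. Between m and r1 none of the 10 genes passed, against 0.101% of all probe sets. Between r1 and r2 EPHA7 alone passed. From r2 to r3 EPHA4 was higher (1 of 10, against 5.50%) and EPHA5, EPHB1, EPHB2, EPHB3 and EFNB1 were lower (5 of 10, against 31.6%), with a median over all probe sets of -0.65. From r3 to r4 EPHA3, EPHB1, EPHB2 and EFNB1 were higher (4 of 10, against 25.2%) and none was lower, against 2.83%, with a median over all probe sets of 0.56. Under quantile normalisation, and under 75th percentile scaling, EPHB1 alone still passed from r3 to r4. From r4 to r5 none of the 10 passed, against 0.465%.

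**Figure D4:**
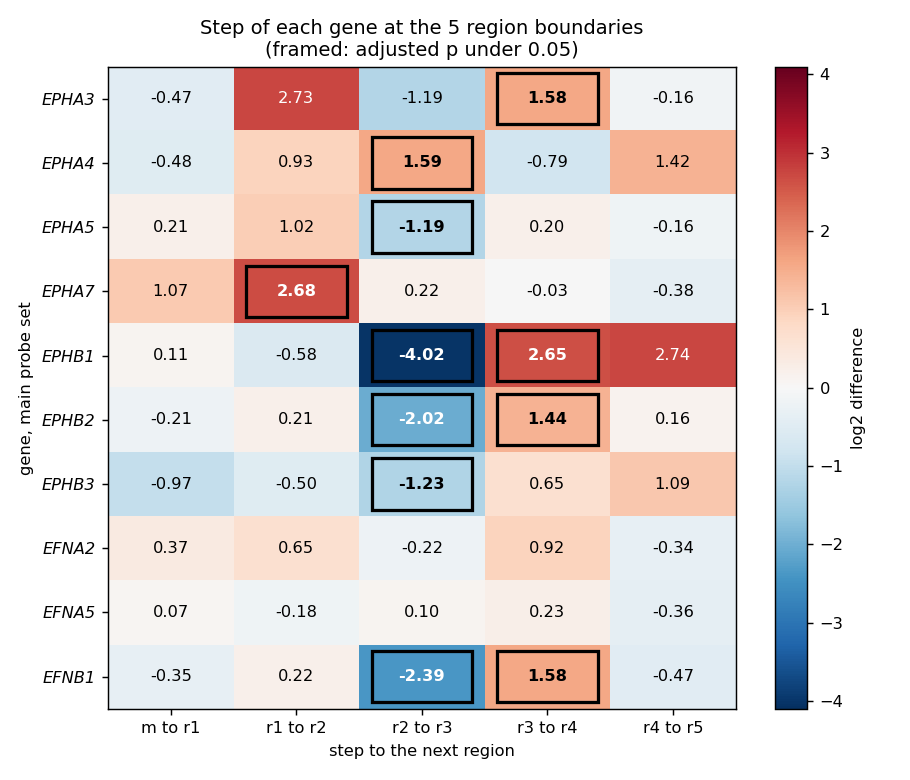
Log2 difference of each gene's main probe set at the 5 boundaries from m to r5, each read as the region behind minus the region in front; red is higher behind, blue lower, and a frame marks an adjusted p under 0.05. Of the 11 framed steps 6 are between r2 and r3, where 5.50% of all probe sets passed as higher and 31.6% as lower. Between r3 and r4 there are 4, where 25.2% passed as higher and 2.83% as lower. The one outside them is EPHA7 between r1 and r2 (2.68), where 0.290% passed in either direction.

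Receptor and ligand were laid side by side over the 6 region means of log2 signal. The values are descriptions over 6 points that share their arrays and no test was made. EPHA4 and EFNB1 ran opposite ways over the regions as a whole, with Pearson's r = -0.80 over the 6 regions, -0.90 without r3, and -0.84 and -0.56 in set 1 and set 2. In r3 and r5 EPHA4 was high (20.9 to 41.0) where EFNB1 was low (16.3 to 81.9), and in r2 EPHA4 was low (8.66 and 7.75) where EFNB1 was high (148 and 177). The m and r1 regions also had low EPHA4 and high EFNB1, and in r4 both were between. Many probe sets moved as EFNB1 did. Of all probe sets, 31.6% passed as lower from r2 to r3, 15.5% as lower in r3 and r5 and 20.0% as higher in m and r1. How many ran opposite to EPHA4 was not counted. With the next 2 EFNB1 probe sets r was -0.79 and -0.77, but with the dimmest it was -0.17, and 0.16 without r3. From region to region the main probe sets of EPHA4 and EFNB1 moved opposite ways in 3 of the 5 steps.

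Over all regions the EphB receptors ran with the main probe set of EFNB1 rather than against it. For EPHB2 r was 0.94, and 0.86 without r3, where EPHB2 itself did not differ between regions (F adjusted p = 0.106). Both fell in r3, as 31.6% of all probe sets passed, and rose in r4, as 25.2% passed. For EPHB3 r was 0.74 and for EPHB1 0.71, but without r3 these were 0.40 and -0.11. With the other brighter EFNB1 probe sets r was 0.77 to 0.95 for these receptors. With the dimmest it was 0.70 for EPHB2, 0.60 for EPHB1 and 0.245 for EPHB3, and 0.28, 0.03 and -0.41 without r3. In r5 EPHB1 was high (35.8 and 55.5) where EFNB1 was not (53.9 and 81.9, below both arrays of m and r2).

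Among the EphA receptors and ephrin-A ligands the answer turned on the EFNA5 probe set. With the even main probe set r lay between -0.30 and -0.09 for the 4 receptors, and under quantile normalisation it was 0.14 to 0.47. With the second probe set r was -0.94 for EPHA7, -0.82 for EPHA4, -0.70 for EPHA3 and -0.02 for EPHA5. With the dimmest that passed the filter r was -0.73 for EPHA7, -0.895 for EPHA4, -0.48 for EPHA3 and 0.38 for EPHA5. The second ligand probe set was highest in m and r1 (41.4 to 55.4), where EPHA7 was lowest (14.2 to 34.0). It was lower in r2 to r5 (12.2 to 32.3), where EPHA7 was highest (180 to 340). EFNA2 ran with EPHA3 (0.92) and EPHA7 (0.86), but in a ligand that did not pass the F test, and for EPHA3 r was 0.39 in set 2.

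**Figure D5:**
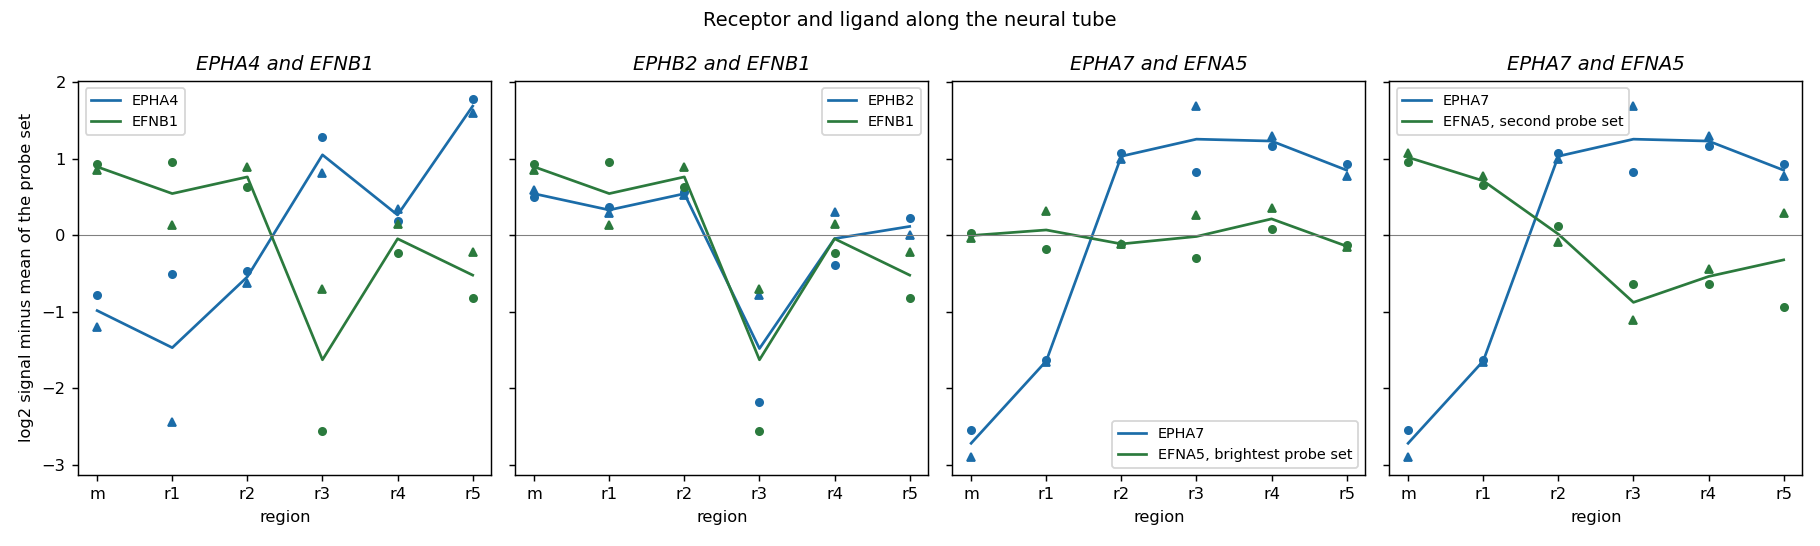
Log2 signal minus the mean of the probe set for a receptor (blue) and a ligand (green) by region; lines join region means, circles are set 1 and triangles set 2. EPHA4 and EFNB1 cross between r2 and r3 (r = -0.80), and EPHB2 and EFNB1 run together (0.94). For EPHA7 r is -0.94 with the second EFNA5 probe set and -0.09 with the brightest one. Between r1 and r2 EPHA7 rises (log2 difference 2.68), while the steps of the second EFNA5 probe set (-0.70) and the brightest (-0.18) did not pass.

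Of 13 other Eph receptors and ephrins the annotation names 6, and 4 passed the filter (EPHA1, EPHA10, EPHB6 and EFNB2). Each of the 4 differed between regions (F adjusted p = 0.00254 to 0.0460), against 34.9% of all probe sets. EPHA10 and EFNB2 were dim, at most 10.95 and 9.41 on any array. Without the r3 arrays these 2 no longer passed the F test (adjusted p = 0.253 and 0.0892). EPHB6, a receptor that in mammals lacks kinase activity, was lower in r3 and r5 than in r2 and r4 (log2 difference -0.95, adjusted p = 0.0121), with 23.4 and 32.2 in r3, 55.4 and 43.4 in r5, 75.4 and 72.2 in r2, and 54.4 and 86.1 in r4. EPHA1 was highest in r5 (134 and 104), next in r4 (50.5 and 40.7), and at most 22.4 elsewhere. It was higher behind than in m and r1 (log2 difference -2.48, adjusted p = 0.00380), while its odd against even difference of 1.32 did not pass (adjusted p = 0.120), and EPHA1 was picked out after its values were seen. Without the r3 arrays EPHB6 came to -0.54 (adjusted p = 0.244) and EPHA1 to 2.75, which passed (adjusted p = 0.0253).

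Genes that pass on Eph and ephrin signals were counted from a list of 36, of which 35 are named and 32 passed the filter, and 13 of the 32 differed between regions, against 34.9% of all probe sets. In the odd segments 3 were higher, against 2.34%, and 4 lower, against 15.5%, with a median of -0.17 against -0.34 over all probe sets. Higher were ANKS1B, whose protein family binds Eph receptors (log2 difference 1.50, adjusted p = 0.00658), RASA1, a GTPase activator of Ras (0.65, adjusted p = 0.0157), and the GTPase RAC1 (0.39, adjusted p = 0.0455). ANKS1B gave 41.0 and 38.2 in r3 and 43.0 and 57.1 in r5 against 12.7 to 21.2 in r2 and r4, with no overlap. Lower were CRKL and CRK, adaptors downstream of Eph receptors (-2.29 and -1.53), the GTPase CDC42 (-0.80) and VAV3 (-0.75, adjusted p = 0.0341). CRKL and CRK lay under the floor on both r3 arrays. Without the r3 arrays ANKS1B alone still passed (1.66, adjusted p = 0.0105), and the other 6 had adjusted p-values of 0.168 to 0.922, with -1.10 for CRKL and -0.62 for CRK.

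Genes with the profile most like that of each receptor or ligand were sought by Pearson's r over the 12 arrays among 10001 genes, as a description. For EPHA7 these were CAB39L (r = 0.986), DRAXIN (0.978), a secreted axon guidance protein, and PAX6 (0.955), a transcription factor of neural progenitors, and without r3 the values were 0.961 to 0.989. For EPHA3 they were THSD7A (0.944), GSG1L (0.937) and RAMP3 (0.916). For EPHA4 they were GPR137B (0.923), TNFAIP8 (0.921) and BATF3 (0.918), with 0.909 to 0.941 over the 10 arrays without r3. For EPHA5 they were ADAMTSL1 (0.910), the protocadherin PCDH9 (0.875) and LOC768434 (0.837).

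The ligand EFNB1 was most like HES4 (0.986), a transcriptional repressor of the Hes family, PCSK7 (0.985) and FAM177A1 (0.976). EPHB1 was most like ENC1 (0.973), EAF2 (0.962) and CRYAB (0.961), and these were 0.869 to 0.912 without r3. EPHB2 was most like RALGAPA1 (0.991), MTG1 (0.990) and CNPPD1 (0.990), and these were 0.914 to 0.936 without r3. EPHB3 was most like RNF216 (0.961), CASP9 (0.956) and GRM4 (0.956).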

How the data were processed

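From 10 ng of total RNA per pool the authors made labelled cDNA, hybridised it to Affymetrix Chicken GeneChips and deposited linear probe set intensities, which the submitters' processing notes credit to MAS5 and which were not scaled between arrays. The number of arrays, 2 per region, limits the precision, and p-values measure the spread between pools. Signals were brought to a common median of 5.90 over the 38439 probe sets that are not controls, raised to a floor of 1.03 (the pooled 20th percentile) and turned to log2. A probe set was kept if it exceeded the array median on both arrays of some region (21731). Folds near the floor are understated. limma 3.58.1 in R 4.3.3 fitted 6 region means (lmFit, eBayes with an intensity trend, 6 residual and 6.00 prior degrees of freedom), with Benjamini-Hochberg adjustment over all kept probe sets for each contrast and a threshold of 0.05. On simulated data the script was checked to recover known changes. Symbols are those of the array annotation, and each of the 23 probe sets' gene identifiers carries the same symbol in RefSeq. Levels of different probe sets were not compared. No 2 arrays held the same values.

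The genes named are the 10 with every probe set, the 3 genes most like each that passed the F test, and the members of 2 further lists that passed for odd against even segments, or else those with the lowest F p. The genes, lists and tests were chosen with earlier results of these data known. Alternatives were other scalings, floors and filters, limma without the trend or with array weights, the methods' analysis of variance without moderation, the set number as a block, the mean 3'/5' ratio of 3 control genes as a covariate, the mean of a gene's probe sets, and each array or both r3 arrays left out. Plots were made with matplotlib 3.10.9 (Python 3.11.15).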

Additional observations from a re-analysis of the deposited data

How the results depend on the processing

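The 2 EPHA7 results kept their direction under every alternative run, and EPHA7 in m and r1 against r2 to r5 passed in 26 of 26, while its step from r1 to r2 was lost without r2 set 1 (adjusted p = 0.0523) and in the plain analysis of variance (0.0801). EPHA3, EPHA4 and EPHB3 in m and r1 against r2 to r5 passed in 25 of 26, all but the 3'/5' covariate. Over all probe sets the F test called 7580, and 11762 without scaling, 4197 in the plain analysis of variance, 4203 without both r3 arrays and 430 with the covariate. The number of the 10 genes called between regions, 8, was 5 in the plain analysis of variance, 2 with the 3'/5' ratio as covariate and 7 to 8 with each array left out.

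The 4 calls of odd against even segments were fewer in most settings. There were 2 after quantile normalisation, where 1072 of 21731 probe sets passed as higher and 1507 as lower. After 75th percentile scaling there were 2, against 1543 higher and 1124 lower. With array weights there were 2 (EPHB2 and EFNB1), against 308 and 2873. With the mean of a gene's probe sets there were 2, against 306 and 2396 of 14985. There was 1 without the intensity trend (EPHA4), against 316 probe sets higher and 1684 lower. In the plain analysis of variance there was 1 (EPHA5), against 277 and 1373. Without both r3 arrays 1 passed (EPHB1), and with r1 added to the odd segments 1 passed (EPHA7), none of the 4. There were 0 without the filter, where 323 of 38439 probe sets passed as higher and 1853 as lower. In that setting 4 of the 10 genes had an unadjusted limma p under 0.05, as had 8541 of the 38439 probe sets. With the covariate there were 0, and 0 unadjusted, against 1771 of 21731 probe sets unadjusted. Leaving out single arrays gave 0 to 4, with 0 without r2 set 1, r2 set 2, r4 set 2 or r5 set 1. Without scaling the share of all calls that were higher in odd segments was 0.312%, and the median of all probe sets was -1.04, against -0.08 after quantile normalisation and 0.03 at the 75th percentile.

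For m and r1 against r2 to r5, where 7 genes passed, 1 did with the covariate and 4 to 8 with each array left out. The share of all calls higher in m and r1 was 77.9%, but 51.4% after quantile normalisation, 35.3% at the 75th percentile and 97.2% without scaling. The 11 boundary calls became 7 after quantile normalisation, 7 without the trend, 6 in the plain analysis of variance, 1 with the covariate and 6 to 13 with each array left out. The covariate moves with region, so it takes region differences with it: under it 7 values turned, EPHB2 in m and r1 (-0.30) and from r2 to r3 (0.13), EPHB3 from r2 to r3 (0.96), and EFNB1 in odd segments (0.37), in m and r1 (-0.96), from r2 to r3 (2.22) and from r3 to r4 (-1.06), none past the threshold. The cause was not tested for the other alternatives.

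With the set number as a replicate block, 8 genes differed between regions, 3 in odd against even segments (EPHA5 was lost, adjusted p = 0.0530), 7 in m and r1 and 11 at the boundaries. Same-numbered arrays did not deviate together (r -0.04 to 0.07, above 0.1 in 0 of 15 pairs of regions), so the set numbers were not taken to pair the arrays.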
